A study of Homo sapiens with 2 samples.

Results

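Clathrin, its plasma membrane adaptor AP2, dynamin 2 and the assembly protein PICALM were followed in 2 xenograft tumours of NCI-N87, a gastric carcinoma line of human origin with high HER2. The genes were 10 named members of this machinery, CLTA, CLTB, CLTC, AP2A1, AP2A2, AP2B1, AP2M1, AP2S1, DNM2 and PICALM, and all 10 were found by symbol among the 29972 human genes of the deposited table. Both tumours grew from cells implanted under the skin of nude mice. The first group is 1 untreated tumour. The second is 1 T-DM1-refractory tumour from a mouse given trastuzumab emtansine (T-DM1) every 3 weeks for 18 weeks. T-DM1 is an antibody against HER2 that carries the microtubule poison DM1. With 1 library in each group no difference below has a check by replicates, no test across samples was possible, and a difference between individual tumours cannot be told apart from one of treatment. The labels do not say whether the refractory tumour arose from 1 clone or when the untreated tumour was collected.

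Clathrin is a three-legged protein of heavy chains, each with a bound light chain, that polymerises into a cage around a budding vesicle. AP2 is a four-part adaptor that sits at the plasma membrane, binds cargo receptors and phosphoinositides, and recruits clathrin. Dynamin cuts the neck of the coated pit, and the vesicle is then uncoated. Cell surface receptors with bound antibody can enter cells by this route, and an antibody-drug conjugate has to reach the lysosome for its toxin to be released.

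The libraries held 59902712 and 75722114 rounded counts, the smaller one from the refractory tumour. HER2 mRNA (ERBB2) stood at 7267 CPM without treatment and 7975 CPM in the refractory tumour, where CPM is the count scaled to a common library size. All 10 epithelial markers looked up were above 78 CPM in both libraries. Of these, 0 was 2-fold different, beside 20.8% of the 14167 genes that reached 1 CPM in at least 1 library. The markers ran from KRT8, lower in the refractory tumour (3204 CPM without treatment and 1827 CPM), to EPCAM, higher there (471 and 785 CPM). Of 16 markers of immune, endothelial and stromal cells, 6 had no count in either library (among them CD3E, CDH5, COL1A2, COL3A1 and DCN), and the leukocyte marker PTPRC stood at 0.0654 and 0.287 CPM. Their summed level was 44.2 CPM without treatment and 134 CPM in the refractory tumour, most of it LYZ (27.2 and 95.9 CPM) and CD68 (3.62 and 29.2 CPM). Host cells in a nude mouse are mouse cells and the deposited table lists human genes, so these markers cannot measure host cell content. Which cells the LYZ and CD68 transcripts came from was not tested, nor whether these transcripts have a part in the differences below. In whole tumours, fewer cells of a type and less RNA per cell cannot be told apart.

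Of these genes, 9 of 10 differed by less than 2-fold between the tumours. The light chain genes CLTA and CLTB had the lowest log2 values and the alpha adaptin gene AP2A2 the highest. At a 2-fold difference in log2 after 1 CPM was added to both values, 0 of the 10 members was higher and 1 was lower in the refractory tumour, CLTA. Over the 14167 genes that reached 1 CPM in at least 1 library, called described genes below, which include all 10 members, 9.8% were 2-fold higher and 11% were 2-fold lower. A count of 1 lower member in 10 is near that background. The median log2 of the members was 0.16, beside 0.03 for all genes described. Above 0 were 7 of the 10 members and 52.0% of all described genes. In the authors' deposited table, which sets 1 library against 1, the p-values of the members ran from 0.345 for CLTA to 0.991 for AP2B1.

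**Figure D1:**
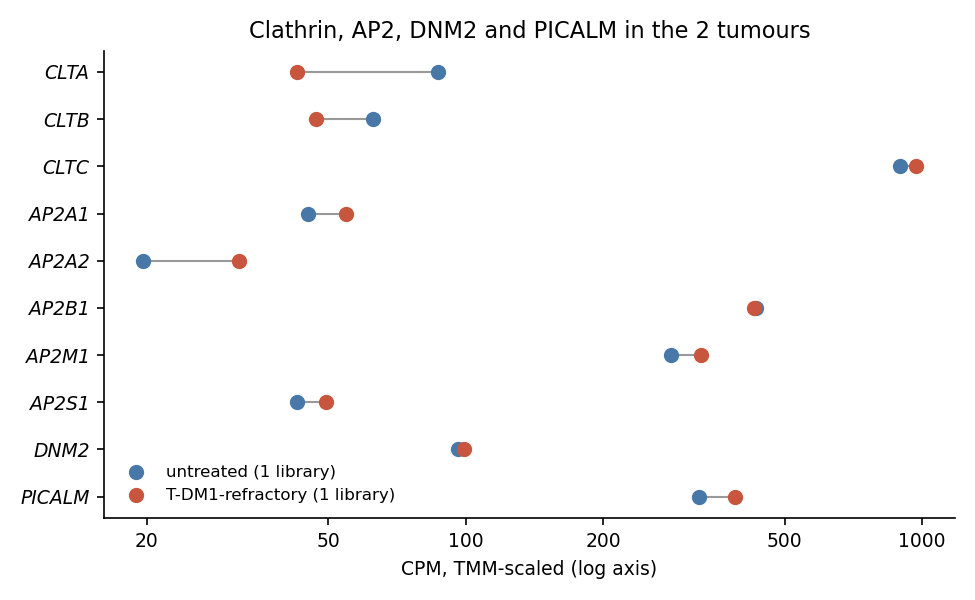
Level of each gene in CPM (log axis) in the untreated (blue) and the T-DM1-refractory (red) tumour, 1 library each, with a grey line joining the 2 values. CLTA and CLTB lie to the left in the refractory tumour, and AP2A2 has the widest gap to the right.

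**Figure D2:**
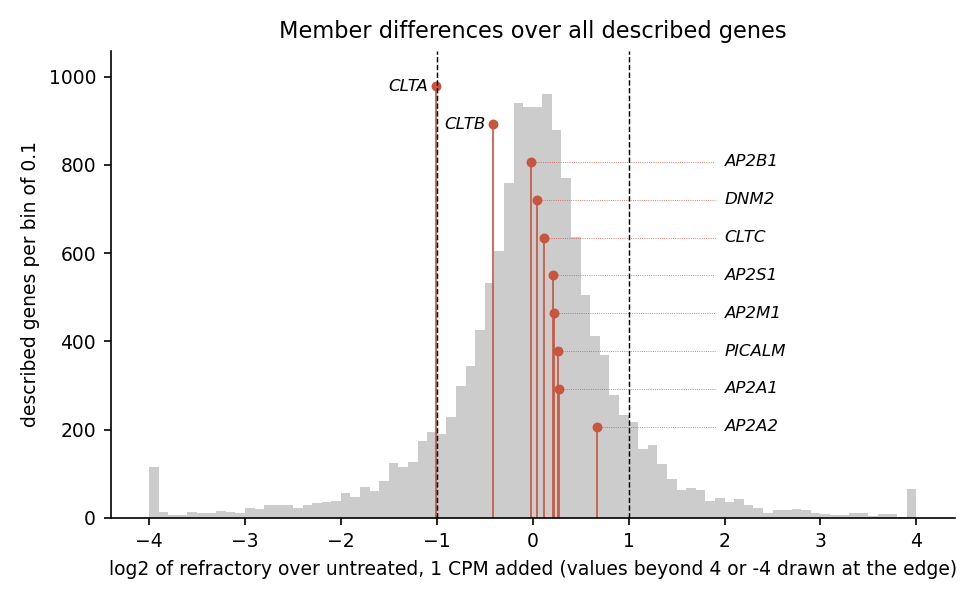
Difference in log2 between the tumours (x axis, 1 CPM added) for the 14167 described genes (grey, genes per bin of 0.1) and the 10 members (red lines, whose heights only separate the names). CLTA lies at the dashed 2-fold line at -1.01, and the other 9 members lie inside it.

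The clathrin light chains are the short regulatory subunits that wrap around the leg of the heavy chain. CLTA encodes light chain a (chromosome 9, coding span 36191057 to 36211774, GRCh38). It stood at 86.8 CPM without treatment and 42.6 CPM in the refractory one, from 6639 and 2527 counts. The refractory level was 2.04-fold lower, with an exact 95% interval of 1.95 to 2.14 that covers counting error only. The log2 difference of -1.01 is at the edge of the 2-fold limit, and 10.8% of all described genes lay below it. With 5 CPM added in place of 1, the log2 was -0.95 and CLTA no longer passed.

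CLTB encodes light chain b (chromosome 5, coding span 176392774 to 176416363). It was also lower in the refractory tumour, at 62.7 CPM without treatment and 46.9 CPM in the refractory library. That is 1.34-fold lower (95% interval 1.27 to 1.40), a smaller difference than that of CLTA and inside the 2-fold limit. The heavy chain gene CLTC (chromosome 17, coding span 59620132 to 59693852), whose product forms the cage itself, stood at 895 CPM and 970.5 CPM. Its ratio of refractory to untreated was 1.08 (95% interval 1.07 to 1.10), so the heavy chain did not share the lower level of the light chains.

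The balance of light to heavy chain mRNA can be read within each library on FPKM, the deposited level per length of transcript, with no scaling between libraries. CLTA and CLTB together held 168 FPKM in the untreated tumour and 101 FPKM in the refractory tumour. CLTC held 138 and 146 FPKM. The light chains thus stood at 1.22 times the heavy chain in the untreated library and at 0.690 times in the refractory library. On counts, that ratio was 1.81-fold lower in the refractory tumour (95% Wald interval 1.75 to 1.87, counting error only). For CLTA alone it was 2.21-fold lower (2.11 to 2.32), and for CLTB alone 1.45-fold lower (1.38 to 1.52).

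The makeup of the light chain pool differed as well. CLTA made up 60.2% of light chain FPKM in the untreated tumour and 49.0% in the refractory tumour. On counts its share was 58.1% (exact binomial 95% interval 57.2 to 59.0) and 47.6% (46.2 to 48.9). CLTA was the more abundant light chain mRNA in the untreated library, while the pair were nearly level in the refractory library, at 49.3 FPKM for CLTA and 51.3 FPKM for CLTB.

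**Figure D3:**
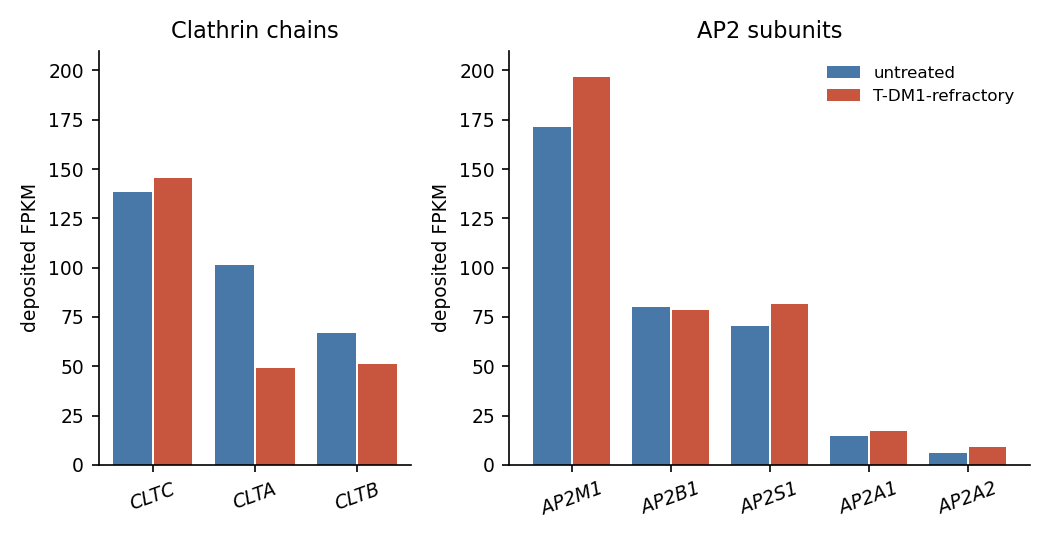
Deposited FPKM of the clathrin chains (left) and the AP2 subunits (right) in the untreated (blue) and T-DM1-refractory (red) library, 1 library each. The CLTA bar goes from 101 to 49.3 FPKM while the CLTC bars stand at 138 and 146.

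The light chain transcripts are short and the heavy chain transcript is long. The lengths implied by the ratio of counts to FPKM were 866 bases for CLTA, 946 for CLTB and 6535 for CLTC. AP2S1 has the shortest transcript of the 10, at 608 bases, and its log2 was 0.21. When trends of log2 with transcript length and GC content over all genes were subtracted, the log2 was -1.24 for CLTA, -0.59 for CLTB and 0.41 for CLTC, so the distance between light and heavy chains was wider on that scale. AP2S1 was then slightly below 0, at -0.11. Whether transcript length has a part in the differences of these genes was not tested.

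The sequences before the starts of the 3 clathrin chain genes are given because the balance of light to heavy chain mRNA differed between the tumours. They come from RefSeq on GRCh38.p14 and read toward the gene from 5′ to 3′, at chr9:36190671-36190873 on the plus strand, chr5:176416570-176416819 on the minus strand and chr17:59619645-59619894 on the plus strand. They end at the last base before the annotated gene, which leaves 203 bases for CLTA and 250 for CLTB and CLTC. Capitals mark matches, on either strand, to a CCAAT box (CCAAT), a GC box (GGGCGG) or a cyclic AMP response element (TGACGTCA).
CLTA: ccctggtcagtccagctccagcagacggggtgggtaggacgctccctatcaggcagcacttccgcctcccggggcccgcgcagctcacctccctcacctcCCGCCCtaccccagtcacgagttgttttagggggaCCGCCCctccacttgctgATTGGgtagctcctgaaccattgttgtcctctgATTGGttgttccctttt
CLTB: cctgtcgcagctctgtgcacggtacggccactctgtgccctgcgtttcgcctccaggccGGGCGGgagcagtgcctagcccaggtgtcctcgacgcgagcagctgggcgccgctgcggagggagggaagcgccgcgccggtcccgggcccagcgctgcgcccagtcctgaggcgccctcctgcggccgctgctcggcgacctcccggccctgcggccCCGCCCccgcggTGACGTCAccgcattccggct
CLTC: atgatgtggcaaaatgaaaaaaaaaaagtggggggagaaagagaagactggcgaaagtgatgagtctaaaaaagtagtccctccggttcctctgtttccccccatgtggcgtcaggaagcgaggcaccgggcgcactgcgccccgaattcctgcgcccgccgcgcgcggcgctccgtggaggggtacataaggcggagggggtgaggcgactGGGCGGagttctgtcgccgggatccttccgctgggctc

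The window of CLTA held 2 CCAAT boxes and 2 GC boxes, each on the reverse strand, where they read ATTGG and CCGCCC. That of CLTB held 2 GC boxes and 1 cyclic AMP response element, and that of CLTC held 1 GC box. The GC content of the windows was 62.1% for CLTA, 76.4% for CLTB and 60.8% for CLTC. Motifs were counted over the 250 bases before the outermost start that the RefSeq promoter table lists for each gene, which for CLTA runs past the printed stretch. A CCAAT box was found in 5 of the 10 members and in 33.0% of 27305 genes of the RefSeq table. A GC box was found in 8 members and 42.2% of genes. The 27305 genes were not filtered by expression, while all 10 members are described genes, so these shares are not a like background. The cyclic AMP response element was found in CLTB and AP2B1 and in 1.75% of genes, and these 2 members had log2 differences of -0.41 and -0.01. The E-box core of lysosomal CLEAR elements (CACGTG, 6.46% of genes) and an antioxidant response element core (TGACNNNGC, 11.1% of genes, which shares its first 4 letters with the cyclic AMP element) were not in these windows of the 10 members. A match of letters is a description of the window and not a measured binding site.

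AP2 is assembled from a large alpha subunit, a large beta subunit, a medium mu subunit and a small sigma subunit. Of its 5 genes, 0 passed 2-fold, beside 20.8% of all described genes in either direction. Their median log2 was 0.22, with 4 of the 5 above 0, as were 52.0% of all described genes. The alpha subunit is encoded by either of a pair of genes. AP2A2 (chromosome 11, coding span 926022 to 1010625) showed the widest increase among the 10 members. It stood at 19.6 CPM without treatment and 31.8 CPM in the refractory library, for a ratio of 1.62 (95% interval 1.51 to 1.74), and 83.1% of all described genes had a lower log2. AP2A1 (chromosome 19, coding span 49767134 to 49806758) stood at 45.0 and 54.6 CPM, a ratio of 1.21 (1.16 to 1.27).

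AP2A1 therefore remained the main alpha subunit mRNA, with a smaller share in the refractory tumour. It held 70.4% of alpha subunit FPKM in the untreated and 65.0% in the refractory library. On counts the shares were 69.7% (exact binomial 95% interval 68.4 to 71.0) and 63.2% (61.9 to 64.5). Exons of AP2A1 overlap those of FUZ on the opposite strand. FUZ stood at 0.759 and 0.185 CPM, far below AP2A1. Exons of CLTC overlap those of the long non-coding RNA gene AC091271.1 on the opposite strand, which has no value in the deposited table. The sources used here do not say whether the counting used strand.

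AP2B1 encodes the beta subunit, whose hinge binds clathrin (chromosome 17, coding span 35594031 to 35659976). It stood at 432 CPM without treatment and 428 CPM in the refractory library, for a ratio of 0.991 whose 95% interval of 0.975 to 1.01 includes 1. AP2M1 encodes the mu subunit, which reads tyrosine-based sorting signals (chromosome 3, coding span 184176994 to 184183616). It stood at 281 and 328 CPM, a ratio of 1.17 (1.14 to 1.19). AP2S1 encodes the sigma subunit, which with alpha binds dileucine sorting signals (chromosome 19, coding span 46838447 to 46850766) and stood at 42.5 and 49.4 CPM, a ratio of 1.16 (1.10 to 1.22). The ratios of beta, mu and sigma thus ran from 0.991 to 1.17, and the intervals of mu and sigma overlap.

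Within a library the AP2 mRNAs were far from equal per length. AP2M1 was the most abundant, at 171 FPKM in the untreated and 197 FPKM in the refractory tumour. The summed alpha genes reached only 20.5 and 26.5 FPKM, which is 0.120 and 0.134 times AP2M1. AP2B1 stood at 0.467 and 0.398 times AP2M1. AP2S1 stood at 0.413 and 0.414 times AP2M1. The order of the AP2 subunit mRNAs had mu highest and alpha lowest in both libraries, while AP2B1 (79.8 and 78.4 FPKM) and AP2S1 (70.6 and 81.6 FPKM) exchanged places at close levels.

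DNM2 encodes dynamin 2, the dynamin of most tissues (chromosome 19, coding span 10718243 to 10831047). It stood at 96.2 CPM without treatment and 99.2 CPM in the refractory library, for a ratio of 1.03 (95% interval 0.996 to 1.07) that includes 1. The neuronal dynamin gene DNM1 was near 1 CPM in both libraries (1.11 and 1.42 CPM). DNM3 stood at 2.96 and 1.28 CPM, a ratio of 0.433 (0.330 to 0.564), although its log2 of -0.79 with 1 CPM added is inside the 2-fold limit. DNM2 held 97.4% of the FPKM of the 3 dynamin genes in the untreated and 98.1% in the refractory tumour, so the low paralogs hardly alter the dynamin total of 29.5 and 29.7 FPKM. DNM1L, whose product divides mitochondria and peroxisomes and not coated pits, stood at 208 and 158 CPM (ratio 0.760, 0.741 to 0.780).

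PICALM encodes a phosphoinositide-binding assembly protein that sets the size of the coat and sorts SNARE proteins (chromosome 11, coding span 85959046 to 86068780). It stood at 325 CPM without treatment and 390 CPM in the refractory library, for a ratio of 1.198 (95% interval 1.18 to 1.22). Its neuronal relative SNAP91 had 0 counts in both libraries. CLTCL1, the second clathrin heavy chain gene, stood at 2.28 and 2.83 CPM, and CLTC held 99.7% and 99.6% of heavy chain FPKM. In both tumours, then, the ubiquitous paralog carried nearly all of the mRNA for the heavy chain and for dynamin.

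Ordered by FPKM, the 10 genes of the untreated tumour ran from AP2M1 and CLTC through CLTA (101), PICALM (96.5), AP2B1, AP2S1 and CLTB (66.9) to DNM2 (28.7), AP2A1 (14.4) and AP2A2 (6.07). The same genes stood at the top and the bottom in the refractory tumour. CLTA went from the third to the seventh place and PICALM (113 FPKM) from the fourth to the third. Relative to all described genes, CLTA lay above 95.2% of FPKM values in the untreated library and above 87.4% in the refractory library. With 1 library per group the spread of these levels is unknown, so the order of close values such as CLTA and CLTB in the refractory tumour has no error check.

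Earlier analysis of these data showed chromosome segments with shifted expression, so each member was set beside its 20 nearest described genes, 10 on each side. CLTA lay among genes that were lower in the refractory tumour. Their median log2 was -0.69 and 18 of the 20 were below 0. Over all 14167 described genes, 6807 were at or below 0. At least 2-fold lower were 7 of the 20, beside 11% of all described genes. These neighbours included the adjacent sialic acid synthesis gene GNE (296 and 31.8 CPM). Of all described genes with a position, 2.23% had a neighbour median at or below that of CLTA. Relative to these neighbours the log2 of CLTA was -0.32, and CLTA no longer passed 2-fold.

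CLTB was in the opposite position. Its neighbours had a median log2 of 0.54, and only 2 of the 20 had a lower log2 than CLTB. Of the 20, 7 were at least 2-fold higher, beside 9.8% of all described genes. A median at or above 0.54 was found at 6.46% of positions. Relative to its neighbours the log2 of CLTB was -0.95. The lower level of CLTA was thus shared by genes around it, and that of CLTB was not.

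DNM2 differed from its surroundings too. Its neighbours on chromosome 19 had a median log2 of -0.57. Of the 20, 18 were below 0, beside 6807 of all 14167 described genes at or below 0. A median at or below that value was found at 3.10% of positions. DNM2 itself was at 0.04, above 18 of these 20 genes, and its log2 relative to them was 0.62. For the other 7 members the neighbour median lay between -0.12 for CLTC and 0.33 for AP2A2, and the log2 relative to neighbours between -0.04 for AP2B1 and 0.34 for AP2A2. These windows describe where the genes lie. DNA copy number was not analysed here.

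**Figure D4:**
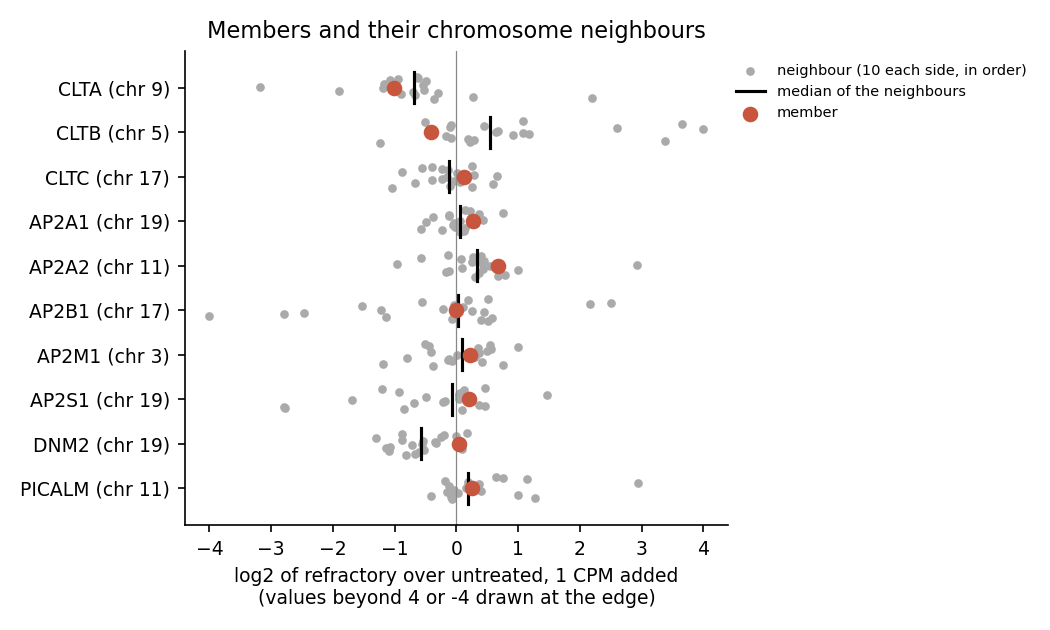
Difference in log2 (x axis, 1 CPM added) of each member (red) and of the 10 nearest described genes on each side (grey, vertical place is their order), with the neighbour median as a black bar. CLTA lies among lower genes (median -0.69), CLTB lies below its neighbours (median 0.54) and DNM2 above its own (median -0.57).

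Several accessory factors of the pathway passed 2-fold, in both directions. Of 26 genes of coat initiation and cargo adaptors, 25 were described, with 3 past 2-fold on the higher and 4 on the lower side and a median log2 of -0.03. These 7 are 28% of the described genes of the list, beside 20.8% of all described genes. The clathrin-binding relatives HIP1 and HIP1R, which link coats to actin, differed in opposite directions. HIP1 stood at 85.6 CPM without treatment and 25.2 CPM in the refractory tumour, and HIP1R at 19.4 and 65.7 CPM. The stonin gene STON1 stood at 5.68 and 0.202 CPM, and the adaptor-binding endocytic factor NECAP2 at 19.3 and 45.9 CPM. The median log2 of the chromosome neighbours was 0.13 for STON1 and 0.65 for NECAP2. Also past 2-fold on the lower side, named after their values had been seen, were FCHO1 (2.68 and 0.607 CPM) and DAB2 (9.06 and 3.71 CPM). Their neighbours had a median log2 of -0.73 for FCHO1 and -0.15 for DAB2.

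Of 27 genes of membrane bending, scission and uncoating, 24 were described, 3 of them higher and 2 lower, with a median log2 of -0.06. That is 20.8% of those described, the same share as over all described genes. BIN1, an amphiphysin that senses membrane curvature, stood at 1.69 CPM without treatment and 27.5 CPM in the refractory library, for a ratio of 16.3 (95% interval 13.6 to 19.7). SNX18, a sorting nexin that binds dynamin, stood at 189 and 22.9 CPM and was 8.23-fold lower (7.78 to 8.70). PIP5K1B, a kinase that makes the phosphoinositide bound by AP2, stood at 5.74 and 33.2 CPM. PACSIN1, a neuronal F-BAR protein gene, stood at 2.49 and 0.354 CPM. The uncoating cofactor GAK, named after its values had been seen, had levels of 28.5 and 68.5 CPM, and its neighbours on chromosome 4 had a median log2 of 0.62.

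Of 30 genes of the other adaptor complexes and GGA adaptors, which act at the trans-Golgi network and endosomes, 29 were described, 3 higher and 2 lower, with a median log2 of 0.10. That is 17.2% of those described, beside 20.8% over all described genes. Among the sigma subunits of AP1, AP1S3 stood at 44.5 CPM without treatment and 181 CPM in the refractory tumour, and AP1S2 at 60.8 and 22.5 CPM. AP4S1 stood at 2.55 and 9.37 CPM beside chromosome 14 neighbours with a median log2 of 2.06. AP5B1 stood at 42.1 and 18.0 CPM. AP4M1, named after its values had been seen, had levels of 9.64 and 20.7 CPM.

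Receptors that are carried by clathrin coats showed 0 higher and 0 lower of 13 at 2-fold, with a median log2 of 0.00. The most abundant was TFRC, the transferrin receptor and a standard cargo of AP2, at 361 CPM without treatment and 645 CPM in the refractory library, for a ratio of 1.78 (95% interval 1.76 to 1.81). The 13 receptors ran in log2 from -0.84 to 0.83. Over all described genes, 20.8% were past 2-fold.

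**Figure D5:**
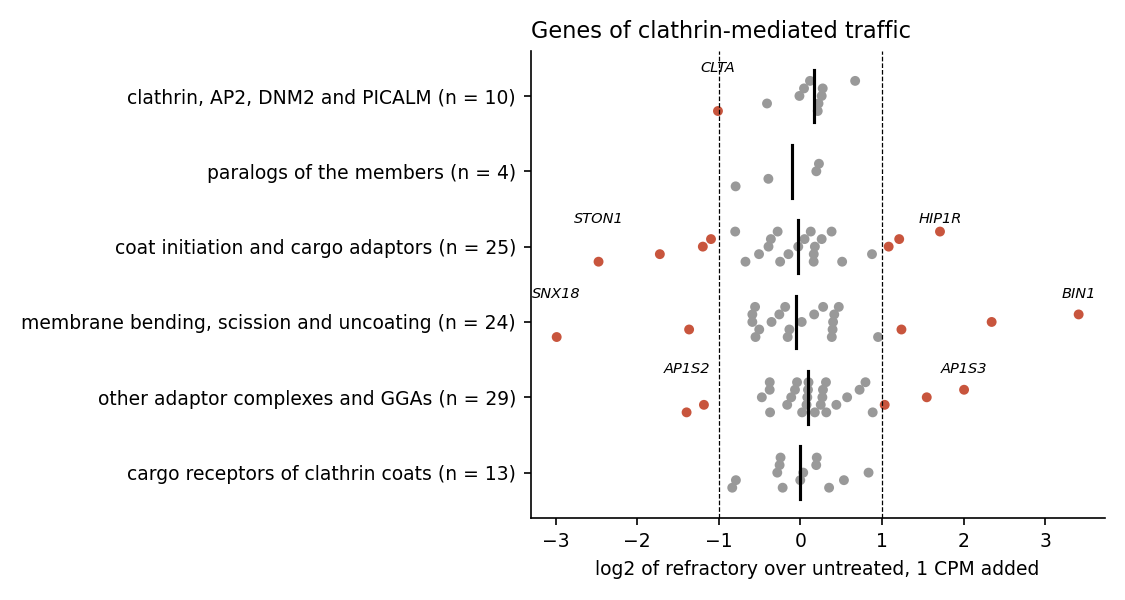
Difference in log2 (x axis, 1 CPM added) of each described gene in the list of 10 and in 5 related lists, with list medians as black bars and genes past 2-fold (dashed lines) in red. BIN1 and SNX18 lie farthest out, and the list of 10 spans only -1.01 to 0.67.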

How the data were processed

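RNA was measured in 1 untreated and 1 T-DM1-refractory tumour. The authors deposited expected counts per gene, FPKM, a log2 fold change and a p-value. The submitters' processing notes name edgeR 3.26.8, RSEM 1.2.28, STAR 2.7.0e and bcl2fastq 2.20, and the builds GRCm38 and GRCh38. What each of these was used for, how mouse reads were handled, the annotation and the filters: not given in the sources used here. FPKM is, per the file headers, scaled by length and library size. In the authors' deposited table the log2 fold change is refractory over untreated.

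Expected counts were rounded and scaled by TMM factors (1.0097 untreated, 0.9904 refractory) from edgeR 4.0.16 in R 4.3.3. Genes that reached 1 CPM in at least 1 library were described. Ratios of CPM have exact 95% intervals, from the Clopper-Pearson bounds of 1 library's share of the summed counts. Reads carry no molecular identifiers, so all intervals cover counting error only. They leave out the choice of scaling, which matters for ratios near 1. With total count scaling the log2 of AP2B1 was -0.04 in place of -0.01. A difference in log2(CPM + 1) understates the change of low genes. Neighbours were ordered by RefSeq start (GRCh38.p14), which placed 95.2% of described genes. The length and GC trend used medians in 10 bins each over 10 rounds, with GC from GENCODE 29, for 90.3% of described genes. Fold recovery and intervals were tested on simulated Poisson counts. These follow the model that the intervals assume and hold no variation between tumours, so they cannot check that variation.

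The members and lists were chosen with earlier results of these data known. Named genes are the 10 members, their paralogs, and up to 2 genes per related list with the largest change past 2-fold each way, or the most abundant where none passed. With 2 libraries no likeness of pattern between genes could be measured. Other scalings, pseudocounts, filters, thresholds, FPKM and the neighbour-relative scale were tried as alternatives. Some single genes under these rules are not reported here.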

Additional observations from a re-analysis of the deposited data

How the results depend on the processing

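The median log2 of the 10 members was 0.16 and stayed between 0.12 (length and GC trend removed) and 0.17 (neighbours subtracted) over 11 alternatives. No member was 2-fold higher, and 1 was at a threshold of 1.5-fold (AP2A2). The 1 member that was 2-fold lower, CLTA, gave a count of 0 with 5 CPM added, with neighbours subtracted and at a threshold of 4-fold. In the alternatives with 2-fold kept, its log2 ran from -1.24 to -0.32, always below 0, and it passed in 9 of 11. Among these 11, dropping the 1 CPM filter or raising it to 10 CPM cannot change the log2 of any member or their median. Those settings are therefore no check of CLTA. CLTB stayed below 0 in all 11, from -0.95 to -0.38. AP2A2 stayed above 0 in all 11, from 0.34 to 0.69. Its lowest value was with neighbours subtracted, where DNM2 (0.62) stood above it. AP2B1, AP2S1 and DNM2 changed sign within -0.11 to 0.62, and no other member did. No paired analysis was possible because each group has 1 library and the labels give no replicate numbers. The lowest count of a member was 1498, so counting error was small, and the spread between tumours of a group is unknown.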

Other observations

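A pair of gene families, chosen after their values were seen, differed in makeup between the tumours on the FPKM scale. Of the AP1 sigma subunit mRNAs, AP1S2 held 42.6% in the untreated and 10.2% in the refractory tumour, AP1S3 held 15.7% and 41.7%, and AP1S1 held 41.7% and 48.1%. The summed level of these 3 genes was 76.9 FPKM in the untreated and 116 FPKM in the refractory tumour. HIP1 held 68.6% of the summed HIP1 and HIP1R level in the untreated tumour and 16.5% in the refractory tumour, while the sum was 16.2 and 19.6 FPKM. The median log2 of the neighbours was 0.16 for HIP1, 0.22 for HIP1R, 0.05 for AP1S2 and -0.27 for AP1S3. Genes picked for large differences mostly lie farther out than a median of 20 neighbours. These medians therefore cannot show that the differences are particular to these genes, which was not tested.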
